A study of Schizosaccharomyces pombe with 15 samples.

Results

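Nuclear transfer RNA (tRNA) genes are described here by whether a peak of Scr1 binding lay on or beside them. All genes annotated as tRNA on chromosomes I, II and III of S. pombe were taken, 171 of 12606 annotated genes, of which 56 were on chromosome I, 68 on II and 47 on III. A gene was called in a peak list when a peak overlapped it or lay within 200 bp of it. Scr1, a zinc finger protein that represses genes needed for carbon sources other than glucose, carried a TAP tag and was precipitated with an antibody to protein A (chromatin immunoprecipitation and sequencing, ChIP-seq). Cells grown in 3% glucose were washed, divided between fresh medium with 3% glucose and molasses medium, and cultured for 4 h. The glucose and molasses samples of Wilmar-P may therefore share starting cultures, and which samples do is not given in the sources used here. There were 2 biological replicates in each of 3 groups. Laboratory S. pombe (strain 972h- Scr1-TAP in one label, and in another h+ with the alleles ura4-d18, leu1-32 and ade6-m216 and with scr1::TAP-KanMX6) was grown in molasses, and Wilmar-P (h90 scr1::TAP-KanMX6), an industrial strain adapted to fermenting molasses, in molasses and in 3% glucose. These 2 labels give different mating types, and all 6 samples carried the tagged scr1 allele. The strains also differ in the auxotrophic alleles that only the laboratory cells carried, so that the strain difference cannot be told apart from these. Input and RNA polymerase II samples were not analysed here, and no precipitation from an untagged strain was analysed.

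tRNA genes are short and are transcribed by RNA polymerase III. Their promoter lies inside the gene, as an A box near the 5′ end and a B box near the 3′ end, which the factor TFIIIC binds before TFIIIB and the polymerase are recruited. In S. pombe most tRNA genes also have a TATA element upstream of the start, and tRNA genes are gathered at the centromeres, where they can act as boundaries between heterochromatin and the neighbouring chromatin. The comparisons below address whether the tRNA genes at which Scr1 was found differed between the strains in molasses, and between the media in Wilmar-P.

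The genes were 71 to 102 bp long (median 73 bp), and 44 of them had an annotated intron. Read on their annotated strands, they fell into 69 distinct sequences and 46 anticodons. Of these, 1 sequence and 1 anticodon (GAC) came from SPBTRNAASP.05 alone. Its annotated sequence is the reverse complement of the tRNA-Asp genes with anticodon GTC. A match to the letters GTTCNANNC (B box, searched along the gene) was in 156 of 171 genes (91.2%), against 1.24% of 73 bp windows of the genome. A match to TNGCNNAG in the first 30 bases (A box) was in 32 genes (18.7%), against 1.5% of 30 bp windows. TATAA stood in the 50 bp upstream of 68 genes (39.8%, 9.28% of 50 bp windows), and TTTT in the 30 bp downstream of 164 (95.9%, 25.5% of 30 bp windows). These motifs were searched on the annotated strand of the gene.

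The sequences below were read from the RefSeq assembly ASM294v3 and are printed because the results turn on closely spaced pairs of tRNA genes. The first 5 are pairs, from the first base of one gene to the last base of the other, and the last 3 are genes with no other tRNA gene nearby. Letters that match GTTCNANNC on the strand of a gene are in capitals, so a gene with no capitals has no match to these letters.
SPBTRNAILE.06 and SPBTRNAALA.09 (chrII:1618293-1618513, plus strand): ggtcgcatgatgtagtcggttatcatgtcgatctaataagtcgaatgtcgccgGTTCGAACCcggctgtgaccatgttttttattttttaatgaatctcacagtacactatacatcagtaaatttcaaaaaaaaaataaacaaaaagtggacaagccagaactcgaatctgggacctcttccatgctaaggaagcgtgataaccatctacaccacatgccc
SPCTRNAARG.13 and SPCTRNAASP.07 (chrIII:1106327-1106557, plus strand): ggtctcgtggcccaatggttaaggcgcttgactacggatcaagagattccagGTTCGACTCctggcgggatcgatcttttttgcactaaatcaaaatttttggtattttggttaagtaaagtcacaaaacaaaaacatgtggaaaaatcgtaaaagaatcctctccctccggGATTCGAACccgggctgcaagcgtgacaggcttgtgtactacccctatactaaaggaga
SPATRNASER.01 and SPATRNAMET.01 (chrI:1096369-1096545, plus strand): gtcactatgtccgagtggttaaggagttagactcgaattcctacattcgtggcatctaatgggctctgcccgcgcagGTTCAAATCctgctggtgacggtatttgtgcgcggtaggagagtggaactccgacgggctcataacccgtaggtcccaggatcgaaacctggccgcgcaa
SPCTRNASER.11 and SPCTRNAMET.07 (chrIII:1689713-1689888, plus strand): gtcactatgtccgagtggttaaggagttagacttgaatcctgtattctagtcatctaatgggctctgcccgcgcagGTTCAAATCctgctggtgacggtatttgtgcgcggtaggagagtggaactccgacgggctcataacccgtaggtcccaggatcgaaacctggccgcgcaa
SPATRNASER.03 and SPATRNAMET.03 (chrI:4265149-4265324, plus strand): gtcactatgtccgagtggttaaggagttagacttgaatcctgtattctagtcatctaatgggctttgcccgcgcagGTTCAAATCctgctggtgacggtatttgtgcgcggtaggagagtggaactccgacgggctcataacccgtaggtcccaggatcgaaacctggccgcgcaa
SPCTRNAHIS.03 (chrIII:71400-71471, plus strand): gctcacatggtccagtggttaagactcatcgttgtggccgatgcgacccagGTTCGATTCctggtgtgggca
SPCTRNALEU.12 (chrIII:1096085-1096185, minus strand): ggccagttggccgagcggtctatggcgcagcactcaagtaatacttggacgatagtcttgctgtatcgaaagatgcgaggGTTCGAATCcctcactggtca
SPCTRNAASN.06 (chrIII:1701899-1701972, plus strand): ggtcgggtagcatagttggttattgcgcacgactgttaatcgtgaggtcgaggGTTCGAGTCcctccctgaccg
In the Ile and Ala pair and in the Arg and Asp pair the genes face each other. The 3 Ser and Met pairs run on 1 strand with 7 bp between the genes. The Ser and Met pair on chromosome I that begins at 4265149 and the pair on chromosome III were identical in 175 of 176 bases. The only difference was T65C, with the base of the chromosome I pair given first and positions counted from 1 at its 5′ end.

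In molasses, many tRNA genes had a Scr1 peak in Wilmar-P, and few had one in laboratory S. pombe or in Wilmar-P on glucose. Of 171 genes, 46 (26.9%) and 41 (24.0%) were called in the Wilmar-P molasses lists of replicates 1 and 2. In the Wilmar-P glucose lists 2 genes (1.17%) and 0 genes were called, and in the laboratory lists 4 (2.34%) and 10 (5.85%). The counts of the groups did not overlap. The difference of the group means was 36.5 genes between Wilmar-P and laboratory cells in molasses, and 42.5 genes between molasses and glucose in Wilmar-P. Both had p = 0.333 in the two-sided exact permutation test of 2 lists against 2, which is the smallest p this design allows, so neither could pass a threshold of 0.05. Genes share peaks and sequences, and were not treated as replicates.

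The lists differed much in length, with 961 and 1073 peaks on the 3 chromosomes in Wilmar-P molasses, 386 and 228 in Wilmar-P glucose and 4239 and 4479 in laboratory molasses. Read numbers are not part of the files, and library depth is therefore unknown. By the same 200 bp rule, 14.2% and 15% of all annotated genes were called in Wilmar-P molasses, 5.42% and 3.4% in Wilmar-P glucose and 47.5% and 49.8% in laboratory molasses. Since tRNA genes are short and lie outside coding sequence, 73 bp windows free of coding exons are the nearer background. Of 64913 such windows, 14% and 14.1% were called in Wilmar-P molasses, 4.79% and 3.26% in Wilmar-P glucose, and 13.1% and 13.7% in laboratory molasses. The tRNA genes thus lay above this background in both Wilmar-P molasses lists and below it in the 4 other lists. Shares as high as theirs in Wilmar-P molasses were also found for 66 snoRNA genes (25.8% and 27.3%), so the excess was not particular to tRNA genes. In Wilmar-P glucose 6.06% and 1.52% of snoRNA genes were called. Of 47 rRNA genes 25.5% were called in each Wilmar-P molasses list, but also 25.5% in glucose replicate 1, and 0 in glucose replicate 2. Of 36 5S rRNA genes only 3 were called in each Wilmar-P molasses list. In laboratory molasses 13.6% of snoRNA genes and 17% of rRNA genes were called in each list. Widened to 1000 bp, the counts of tRNA genes were 70 (40.9%) and 67 (39.2%) in Wilmar-P molasses, where 26.4% and 28% of the windows were called, and 60 (35.1%) and 73 (42.7%) in laboratory molasses, where 58.7% and 60.8% were. At this distance the counts of the 2 strains overlapped, while the shares still lay above the windows in Wilmar-P and below them in laboratory cells. The glucose lists were so short that the counts there cannot be set against molasses without regard to length. Among the 228 peaks of lowest p in each list, Wilmar-P molasses reached 1 tRNA gene in each replicate and Wilmar-P glucose 2 and 0.

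**Figure D1:**
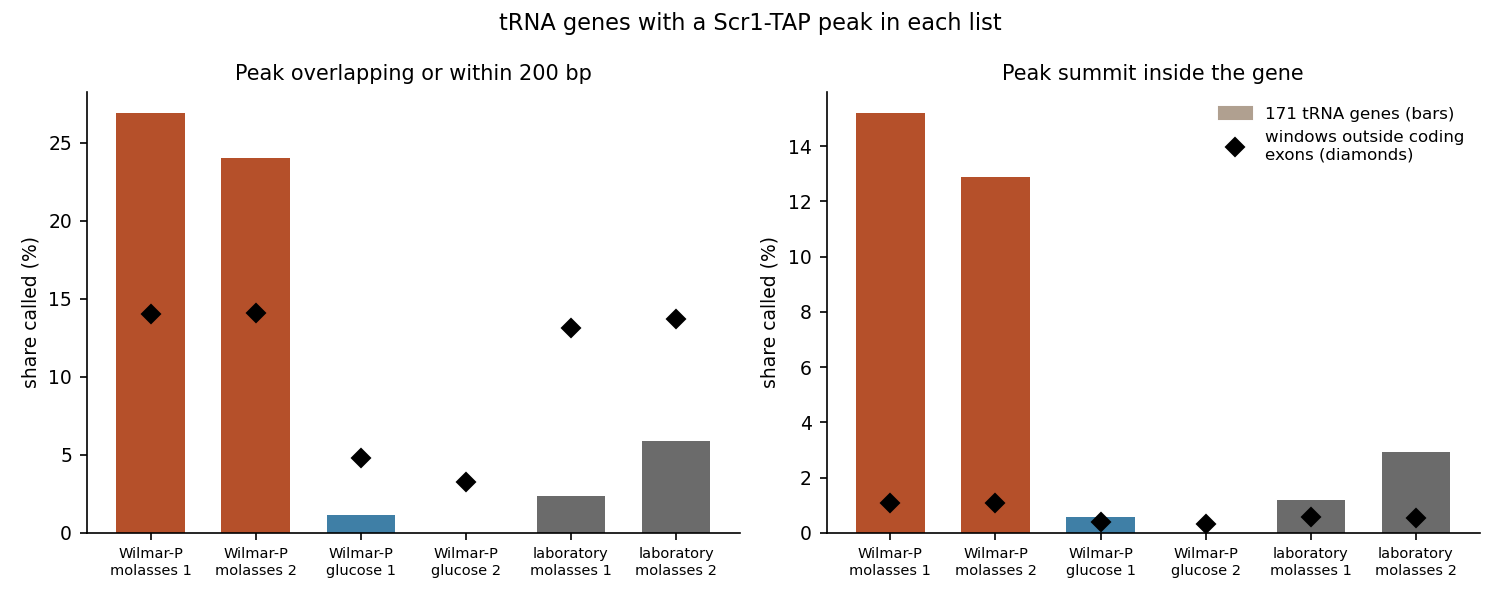
Share of the 171 tRNA genes called in each of the 6 lists (bars, in percent), with a peak overlapping or within 200 bp on the left and with the summit of a peak inside the gene on the right. Diamonds are 73 bp windows outside coding exons under the same rule: on the left the bars stand above the diamonds only for Wilmar-P molasses (26.9% and 24.0%), and on the right the Wilmar-P molasses bars reach 15.2% and 12.9% against about 1% of windows.

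The contrast with the windows was sharper for the summit, the position of highest signal in a peak. A summit fell inside 26 tRNA genes (15.2%) and 22 (12.9%) in Wilmar-P molasses, against 1.08% and 1.07% of windows. In laboratory molasses it fell inside 2 (1.17%) and 5 (2.92%), against 0.555% and 0.535% of windows. In Wilmar-P glucose it fell inside 1 (0.585%) and 0, against 0.379% and 0.319% of windows.

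The replicates of Wilmar-P molasses called nearly the same genes. There were 40 genes in both lists (23.4%; 13% of the windows outside coding exons were called in both), which are 87.0% of those of replicate 1 and 97.6% of those of replicate 2. No gene was called in both glucose lists (3.03% of windows), and 4 were called in both laboratory lists (2.34%; 10.9% of windows). Over all 6 lists 47 genes were called at least once and 124 never. Each called gene was overlapped by a peak, so the count was the same with no distance allowed. Every gene called in a laboratory or glucose list was among the 40 of Wilmar-P molasses. Only replicate 1 called SPATRNALYS.04, SPATRNASER.02, SPATRNAVAL.04, SPATRNATHR.05, SPBTRNAPHE.03 and SPBTRNAPRO.07, all on chromosome arms, and only replicate 2 called SPCTRNAGLU.10, at the centromere of chromosome III.

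The called genes were mostly those with another tRNA gene close by, a property the 200 bp rule did not set out to measure and that was examined after the calls had been seen. There were 32 genes with another tRNA gene within 200 bp, which formed 16 separate pairs of 160 to 335 bp in length. The gap within a pair was 5 to 150 bp. By annotated strand, the genes faced each other in 11 pairs and ran the same way in 5. Among the 5 is the pair SPBTRNAARG.06 and SPBTRNAASP.05. The annotated sequence of SPBTRNAASP.05 is the reverse complement of tRNA-Asp, and read on the other strand it would face SPBTRNAARG.06. A peak was found in both Wilmar-P molasses lists at 28 of the 32 paired genes (87.5%) and at 12 of the 139 others (8.63%). Members of a pair are called together by 1 peak, so pairs were also counted as units, and 14 of 16 were called in each replicate, the same 14. These units are not all separate either. Several are copies of one another in centromere repeats, such as the Ile and Ala pairs on chromosome II. On III, single peaks spanned 4 genes of neighbouring pairs, from 1105699 to 1106589 in replicate 1 and from 1092406 to 1093401 and 1105607 to 1106583 in replicate 2. The loci that can be told apart were thus fewer than 14. Of 17742 windows of 221 bp outside coding exons, the median length of a pair, 16.3% were called in both lists. Among the 139 genes with no close neighbour, the share called in both lists was below that of the 73 bp windows (13%). A summit lay inside 11 of these 139 genes in both lists (7.91%), however, against 0.759% of windows.

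Spacing was followed in steps. All 4 genes with the nearest other tRNA gene 101 to 200 bp away and 24 of 28 with one up to 100 bp away were called in both lists. None of the 23 genes at 201 to 500 bp or of the 8 at 501 to 1000 bp was called in either list. Of the 108 genes more than 1000 bp from another tRNA gene, 12 (11.1%) were called in both lists, 18 in replicate 1 and 13 in replicate 2. The same order was seen in both places, with 24 of 26 paired genes and 2 of 29 others called at the centromeres, and 4 of 6 paired genes and 10 of 110 others on the arms. The arms held 3 pairs only.

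**Figure D2:**
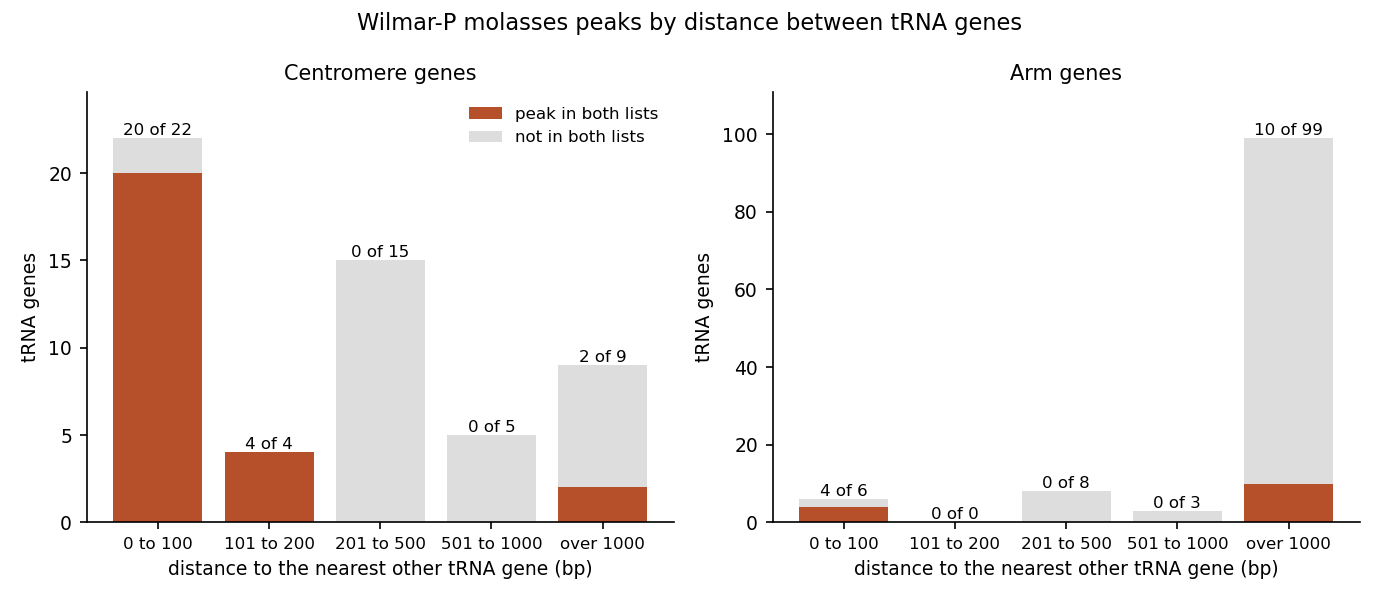
Number of tRNA genes (y axis) by distance in bp to the nearest other tRNA gene (x axis), at the centromeres on the left and on the arms on the right. The coloured part of each bar is the genes with a peak in both Wilmar-P molasses lists, which is 20 of 22 and 4 of 4 in the first 2 steps at the centromeres, and none of the genes between 201 and 1000 bp in either place.

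Closely spaced genes lay largely in repeats, where short reads have more than one place to align, and how such reads were treated is not given in the sources used here. No 75-mer within 200 bp was unique in the genome for 33 genes, all of them at the centromeres, and 17 of these 33 were called in both Wilmar-P molasses lists. The 116 arm genes and 14 centromere genes had at least 50% unique 75-mers. Among genes with at least 50% unique 75-mers, 8 of 11 paired genes (72.7%) and 10 of 119 others (8.40%) were called in both lists. These 8 genes were SPATRNASER.01 and SPATRNAMET.01, SPBTRNAASN.01 and SPBTRNAMET.05, SPCTRNAASP.05 and SPCTRNAARG.11, and SPCTRNASER.11 and SPCTRNAMET.07. In each replicate 1 peak called both genes of a pair, so this share rests on few loci. Among those under 50%, the counts were 20 of 21 (95.2%) and 2 of 20 (10%). The part of read alignment in these counts was not tested beyond this.

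Of the 171 genes, 55 lay in the 3 gene-free stretches that hold the centromeres, defined here as the longest gap between protein-coding genes on each chromosome. These stretches ran from 3751730 to 3790923 on chromosome I (7 tRNA genes), from 1596745 to 1648231 on II (27) and from 1064444 to 1142615 on III (21). Wilmar-P molasses called 26 (47.3%) and 27 (49.1%) of the 55, and 20 (17.2%) and 14 (12.1%) of the 116 on the arms. The genes called in both lists were 26 at the centromeres, 14 of 27 on II, 12 of 21 on III and 0 of 7 on I, where no 2 tRNA genes were within 200 bp of each other. In laboratory cells all called genes, 4 and 10, were at the centromeres of II and III. In Wilmar-P glucose no centromere gene was called.

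Inside the stretches, the share of peaks that lay at tRNA genes was higher in both Wilmar-P molasses lists than in the laboratory lists. In Wilmar-P molasses replicate 1 all 13 peaks there were at tRNA genes (within 200 bp), as were 13 of 29 in replicate 2. Replicate 1 thus had no peak in the stretches away from tRNA genes, and replicate 2 had 16. In laboratory molasses 2 of 52 and 5 of 59 peaks were at a tRNA gene. In both glucose lists the stretches held 0 peaks. By 73 bp windows, 39.0% and 41.5% of those at centromere tRNA genes were called in Wilmar-P molasses, against 0.0625% and 10% of those more than 1000 bp from any tRNA gene. In laboratory molasses the order was the other way, with 5.57% and 14.2% at tRNA genes and 33.6% and 38.5% far from them. The lists were made against the laboratory reference, so the copy number and arrangement of these repeats in Wilmar-P itself were not seen.

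**Figure D3:**
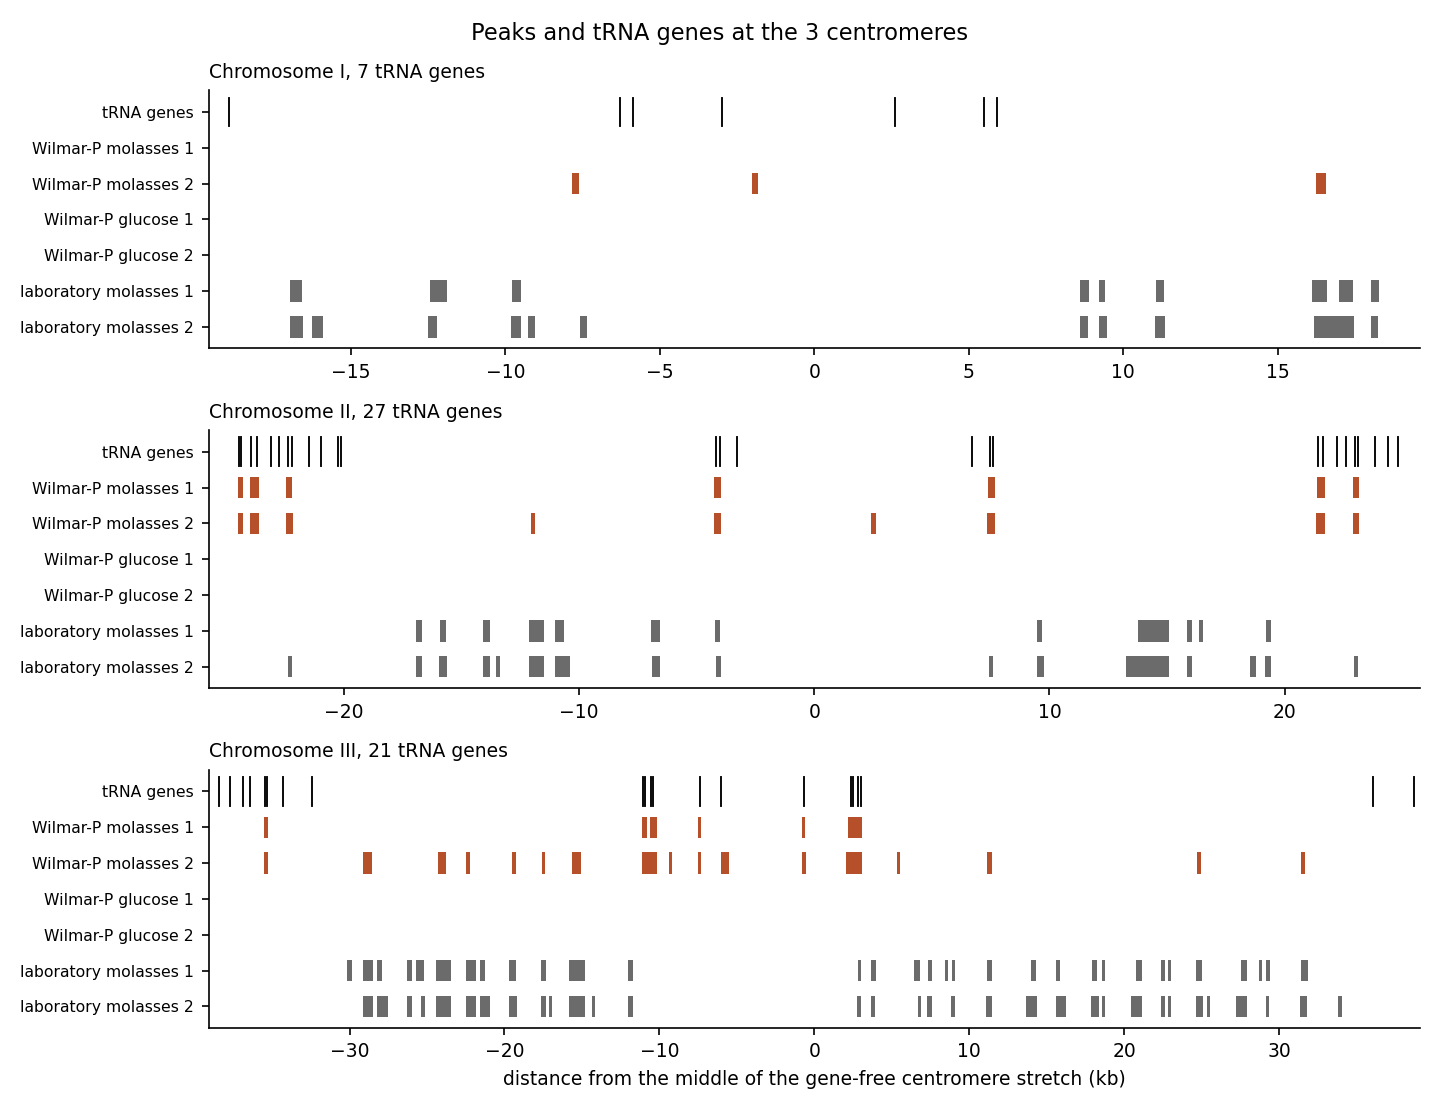
Positions of tRNA genes (black ticks) and of the peaks of the 6 lists (coloured blocks, 1 row a list) in the gene-free centromere stretches, as distance in kb from the middle of each stretch. The 13 Wilmar-P molasses replicate 1 peaks all sit under tRNA genes on II and III, while 16 of 29 in replicate 2 lie elsewhere. Most of the laboratory peaks (52 and 59) lie away from tRNA genes, and the glucose rows are empty.

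Neighbouring clusters showed which tRNAs were called. Clusters here are tRNA genes chained by gaps of at most 1000 bp, of which there were 17 with 63 genes. The largest on chromosome II begins at 1597996 and holds 12 genes, 6 of them called in both Wilmar-P molasses lists. These were an Asn and Met pair (SPBTRNAASN.01 and SPBTRNAMET.05), a Tyr and Leu pair (SPBTRNATYR.02 and SPBTRNALEU.06) and an Ile and Ala pair (SPBTRNAILE.05 and SPBTRNAALA.08). The Gly, Lys, Val, Glu, Arg and Asp genes of that cluster were called in neither list. A cluster on the other side of the centromere, which begins at 1643849, holds 9 of the same tRNA sequences, and the same 4 of these 9 (Tyr, Leu, Ile and Ala) were called. In both clusters, the unique share of 75-mers was 48.8% at the Tyr gene, 18.75% at the Ile gene and 0 at the Leu and Ala genes. The signal of one copy can thus hardly be told apart from that of the other, and the matching calls are not separate observations. Each of the 2 inner clusters on II, beginning at 1618293 and 1629159, holds an Ile and Ala pair, which was called, and a Val gene 660 bp from it, which was not. At the genes of these inner clusters 0 to 0.25% of 75-mers were unique, so the calls of one cannot be told apart from those of the other. The Arg and Asp pair of the 12-gene cluster (SPBTRNAARG.06 and SPBTRNAASP.05, 86 bp apart) was the only centromere pair with no call in any list. SPBTRNAARG.06 has the sequence of the called Arg genes at the centromere of III. Read on the opposite strand, SPBTRNAASP.05 has that of the called Asp genes there.

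On chromosome III the largest cluster begins at 1065044 and holds 7 genes, and only its Asp and Arg pair (SPCTRNAASP.05 and SPCTRNAARG.11, 82 bp apart) was called. In the 2 inner clusters, which begin at 1092437 and 1105840, all 4 genes were called in both Wilmar-P molasses lists, an Asp and Arg pair and a Val and Thr pair in each. These 2 clusters carry the same 4 sequences and had no unique 75-mer, so the signal of one cannot be told apart from that of the other. On chromosome I no cluster held more than 2 genes. Of its 5 clusters, the Ser and Met pair that begins at 1096369 was the only one called.

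The Ser and Met pairs carry a tRNA-Ser and a tRNA-Met gene 7 bp apart. The pair at 1096369 on chromosome I had an enrichment of 3.67 and 3.41 in Wilmar-P molasses and of 3.61 in Wilmar-P glucose replicate 1, where it stood at rank 206 of 386 by p and was the only tRNA locus called on glucose. It had no peak in glucose replicate 2 or in the laboratory lists. The pair on chromosome III at 1689713 had 3.24 and 3.02 in Wilmar-P molasses and no other call. The pair at 4265149 on chromosome I, which differs from that on III by the 1 base given above, had no peak in any list. Of the 75-mers inside these pairs, 50.5%, 50% and 63.7% were unique in the genome, so the 3 loci could be distinguished in part.

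Peaks at tRNA genes were of middling strength. Fold enrichment is the ratio of reads to the local background that the authors' peak caller gave, so it depends on the library and is read here mainly within a list, with replicates set side by side as values. The 46 and 41 genes of Wilmar-P molasses came from 31 and 25 distinct peaks, 3.23% and 2.33% of each list. Their median enrichment was 3.65 and 3.57, against 3.70 and 2.69 for the other peaks of the list. Their median width was 250 and 252 bp, against 368.5 and 362 bp for the others. Apart from SPBTRNAGLU.05, the genes called in both lists stood at ranks 344 to 800 by p in replicate 1 and 325 to 567 in replicate 2. Their enrichment differed between replicates by at most 1.52. In the laboratory lists the 2 and 5 peaks at tRNA genes had enrichments of 1.66 to 2.09 and 1.52 to 1.84, near the medians of the other peaks there (1.77 and 1.80).

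**Figure D4:**
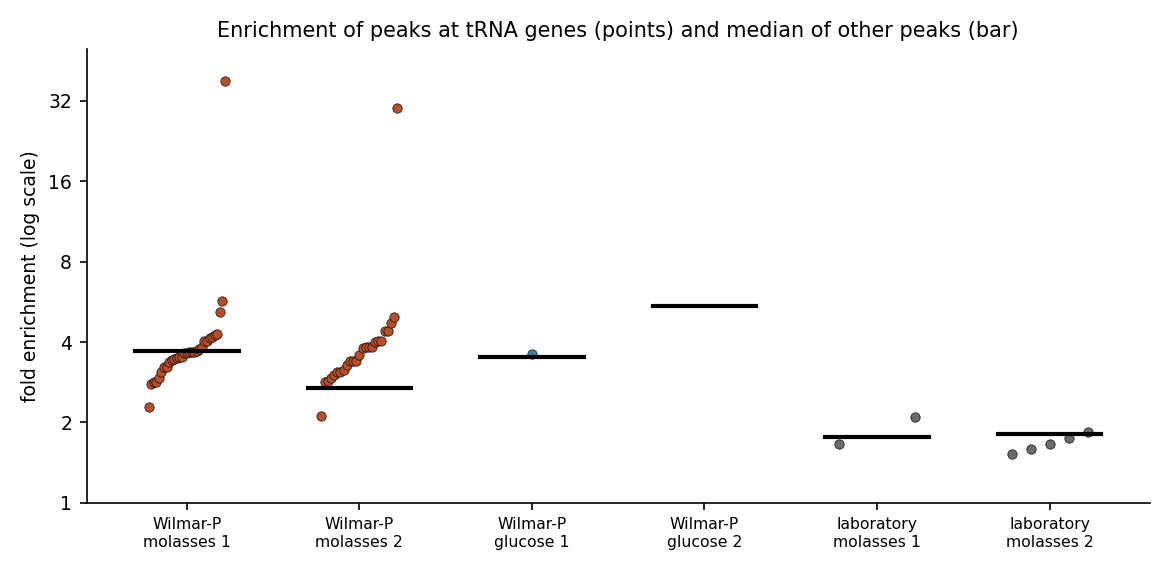
Fold enrichment (y axis, log scale) of each peak at a tRNA gene (points) in the 6 lists, with the median of all other peaks of that list as a bar. Wilmar-P molasses has 31 and 25 points around medians of 3.65 and 3.57 with 1 far above at 37.9 and 30.0, glucose has 1 point in replicate 1, and the laboratory points lie at or under 2.09.

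SPBTRNAGLU.05, a tRNA-Glu gene at 820491 to 820562 on chromosome II, had the strongest peak of all tRNA genes. The enrichment was 37.9 and 30.0 in Wilmar-P molasses, at ranks 47 and 50, with no peak in the other 4 lists. The peak was 981 and 1003 bp wide, and its summit lay 474 and 461 bp upstream of the gene. It thus overlapped the gene only with its edge.

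Next by mean rank over the 2 Wilmar-P molasses lists was SPCTRNAHIS.03, a tRNA-His gene with no close neighbour at 71400 to 71471 on chromosome III, with an enrichment of 5.71 and 4.94. Its summit was 17 and 25 bp into the gene and 149 and 157 bp from the start of a protein-coding gene, SPCC757.11C. The Ile and Ala pair SPBTRNAILE.06 and SPBTRNAALA.09 followed, with 5.17 and 4.42, and then SPBTRNAASN.01 and SPBTRNAMET.05 with 4.27 and 3.79. SPCTRNALEU.13 had 3.70 and 4.72, SPBTRNATYR.02 and SPBTRNALEU.06 had 4.05 and 3.84, and SPCTRNAARG.11 and SPCTRNAASP.05 had 4.03 and 4.02. These loci thus differed little in enrichment, and their order changed between replicates. The last pair tied for the tenth place. None of these 11 genes but SPBTRNAILE.06 and SPBTRNAALA.09 had a peak in a laboratory or glucose list.

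The laboratory peaks marked 5 of the same pairs. SPBTRNAILE.06 and SPBTRNAALA.09, on chromosome II at 1618293 to 1618513, had an enrichment of 2.09 at rank 658 in replicate 1 and of 1.84 at rank 2161 in replicate 2. SPCTRNAARG.13 and SPCTRNAASP.07, on III at 1106327 to 1106557, had 1.66 at rank 2510 and 1.65 at rank 2951. The 3 other Ile and Ala pairs on II were called in replicate 2 only. Of these, SPBTRNAILE.08 and SPBTRNAALA.11 had 1.76, SPBTRNAILE.07 and SPBTRNAALA.10 had 1.59, and SPBTRNAILE.05 and SPBTRNAALA.08 had 1.52 at rank 4066 of 4479. All 4 Ile and Ala pairs of the centromere of II were thus called in at least 1 laboratory list and in both Wilmar-P molasses lists, and in no glucose list. The 4 pairs carry identical gene sequences, and only 0 to 18.75% of the 75-mers at their genes were unique. The calls at the 4 pairs can thus hardly be told apart and do not count as 4 separate loci. Among the 961 peaks of lowest p of each laboratory list, 2 and 0 tRNA genes were called.

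Most summits lay within the tRNA gene itself. In Wilmar-P molasses 26 of 31 and 22 of 25 peaks had their summit inside a tRNA gene. Over peaks that overlapped a single tRNA gene, 15 and 12 summits inside it stood at a median of 44 and 48.5 bp from its 5′ end. The ranges were 17 to 63 and 25 to 63 bp, so these summits were not confined to 1 part of the gene. Relative to the centre of the B box letters, these summits stood at a median of -12 and -22.5 bp, that is towards the 5′ end. Summits in pairs are harder to place, as they may stand between the genes. The peaks were also searched for SYGGGG, with S for C or G and Y for C or T, a consensus of repressors of the Mig1 type to which Scr1 belongs. It was within 100 bp of the summit in 2 of 31 (6.45%) and 3 of 25 (12%) peaks at tRNA genes, beside 16.8% and 15.8% of the other peaks of these lists and 5.38% of 201 bp windows of the genome, searched on both strands. With 2 and 3 peaks no difference from either share was read. The start of a protein-coding gene was within 200 bp of the summit in 2 and 1 of these peaks, and within 1000 bp in 11 and 8. These counts were not set against the other peaks.

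**Figure D5:**
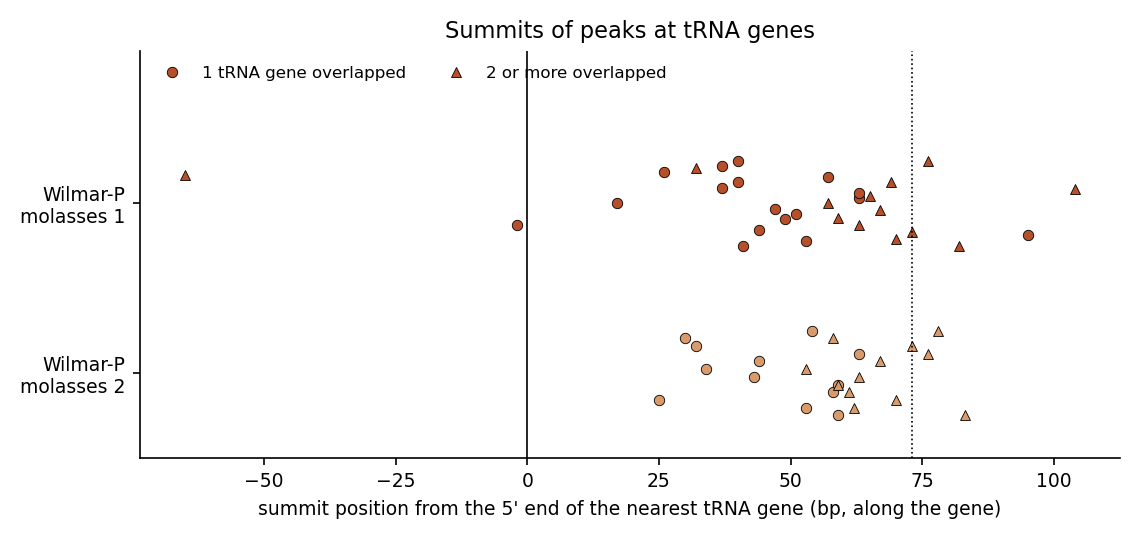
Position of the summit in bp along the nearest tRNA gene, with 0 at its 5′ end and the dotted line at the median gene length of 73 bp, for the 2 Wilmar-P molasses lists (circles for peaks over 1 tRNA gene, triangles for 2 or more; height within a row has no meaning). Summits at single genes fall mostly inside the gene, around medians of 44 and 48.5 bp. The peak of SPBTRNAGLU.05, with its summit over 400 bp upstream, is outside the plotted range.

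By amino acid, called in both Wilmar-P molasses lists were 5 of 9 Ile genes, 4 of 6 Asn, 4 of 12 Ala, 4 of 13 Leu, 3 of 7 Met, 3 of 8 Asp, 3 of 10 Thr, 3 of 13 Arg, 3 of 13 Ser, 2 of 4 Tyr, 2 of 10 Glu, 2 of 12 Val, 1 of 4 His and 1 of 6 Gln genes. None of 12 Gly, 12 Lys, 9 Pro, 5 Phe, 3 Cys and 3 Trp genes was. The amino acid was taken from the gene identifier, since for 5 genes the identifier says Asp and the product says Asn. Of these 5, 4 have the Asp anticodon GTC, and the other, SPBTRNAASP.05, has GTC on the strand opposite to its annotation. Some of these shares went with the place and spacing of the genes, and that of Asn did not. All 4 called Ala genes and 4 of the 5 called Ile genes were those of the Ile and Ala pairs at the centromere of II. No Gly gene had another tRNA gene within 200 bp. Of the 4 called Asn genes, however, 3 (SPBTRNAASN.03, SPCTRNAASN.05 and SPCTRNAASN.06) were arm genes with no other tRNA gene close by, out of 5 Asn genes on the arms. The 4 tRNA-Leu genes with anticodon CAA were all called, 2 of them in pairs and 2, SPCTRNALEU.12 and SPCTRNALEU.13, as single genes at the centromere of III.

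Identical copies of a tRNA gene often differed in their calls. There were 31 sequences with 2 or more copies, 15 of them with a copy called in both Wilmar-P molasses lists, and 13 of these 15 also had a copy that was not. For the 13 sequences with copies in both places, 15 of 38 centromere copies (39.5%) and 5 of 43 arm copies (11.6%) were called. For the Asp sequence with anticodon GTC, as annotated, 3 of 3 centromere copies and 0 of 4 arm copies were called. SPBTRNAASP.05, the same sequence on the opposite strand, was counted apart as a single copy. It lay at the centromere of II and had no call, so 3 of 4 Asp genes at the centromeres were called. For the Ala sequence with anticodon AGC, 4 of 7 centromere copies and 0 of 2 arm copies were called. The Gly sequence with anticodon GCC had 8 copies and the Pro sequence with AGG had 6, none called in both lists. By number of copies, 4 of 38 single-copy genes, 12 of 51 with 2 to 4 copies, 20 of 73 with 5 to 8 and 4 of 9 with 9 copies were called in both lists. Within the arms these counts were 3 of 35, 6 of 38, 5 of 41 and 0 of 2. Genes with an intron were called in 12 of 44 cases and those without in 28 of 127.

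On the arms, 14 genes were called in both Wilmar-P molasses lists (12.1%), near the 13% of windows. By chromosome these were 2 of 49 on I (4.08%, with 11.9% of arm windows outside coding exons), 3 of 41 on II (7.32%, windows 13.2%) and 9 of 26 on III (34.6%, windows 15.8%). The 9 on III were SPCTRNAHIS.03, SPCTRNAILE.09, SPCTRNAASN.05, SPCTRNATHR.10, SPCTRNASER.11, SPCTRNAMET.07, SPCTRNAASN.06, SPCTRNAGLN.05 and SPCTRNASER.13, spread over the chromosome from 71400 to 2072174. Their enrichments in replicates 1 and 2 ranged from the 3.09 and 2.86 of SPCTRNATHR.10 to the 5.71 and 4.94 of SPCTRNAHIS.03. SPCTRNAASN.06 had 4.16 and 3.57, with the summit 26 and 32 bp into the gene, and a 5S rRNA gene, SPRRNA.06, lay 151 bp from it. The other 2 arm genes on II besides SPBTRNAGLU.05 were SPBTRNAASN.03 with 2.82 and 2.84 and SPBTRNAGLU.08 with 4.14 and 3.29. No arm tRNA gene was called in a laboratory list.

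Other genes transcribed by RNA polymerase III were counted by the same rule. Of 36 annotated 5S rRNA genes, 3 were called in both Wilmar-P molasses lists, beside 13% of the windows and 8.63% of the tRNA genes with no close neighbour. They were SPRRNA.06, SPRRNA.18 and SPRRNA.26, the first by the peak over SPCTRNAASN.06. SPRRNA.18 was also called in glucose replicate 1, and no 5S gene was called in laboratory cells. Of the 2 other small RNA genes of this polymerase, srp7, which encodes the RNA of the signal recognition particle, was called in both Wilmar-P molasses lists and snu6, which encodes U6 RNA, in no list. Protein-coding genes as a whole were called at 13.7% and 14.4% in Wilmar-P molasses and at 58.8% and 61.4% in laboratory molasses, and the counts for the machinery of polymerase III lay near these shares. Of its 20 genes, 3 were called in both Wilmar-P molasses lists, tbp1 (TATA-binding protein), rpc25 (a polymerase subunit) and sfc3 (a TFIIIC subunit). In both laboratory lists 10 of them were, namely tbp1, rpc1, rpc2, rpc37, rpc53, rpc82, sfc4, sfc9, brf1 and bdp1. Of 35 aminoacyl-tRNA synthetase genes, which charge tRNA with amino acids, 1 was called in both Wilmar-P molasses lists (msw1) and 24 in both laboratory lists.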

How the data were processed

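Peaks were called by the authors for each replicate on its own, with MACS2 2.1.1 against an input sample, after adapter trimming and alignment with Bowtie2 to the S. pombe reference ASM294v2. The study then joined replicates by irreproducible discovery rate, which was not done here. Instead, a gene was called in a group when both lists had a peak. The deposited lists give fold enrichment as a ratio over the local background, and −log10 p-values and −log10 q-values computed by the authors. These were used only to describe and rank peaks within a list. The lowest −log10 q of a list was 2.00 to 2.43. Read depth is unknown.

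Genes and sequence came from RefSeq ASM294v3, a later release of the authors' build. All peaks fitted within its chromosomes, 1 of them reaching the final base of III. Peaks on 2 other sequences (1 to 17 a list) were left out. Coordinates count from 1. Whether a 75-mer was unique was judged by exact matching over chromosomes I, II and III. Overlaps were computed in Python 3.11.15 with pandas 2.3.3, and group means compared with the exact permutation test of SciPy 1.17.1. In 20 simulated lists of 40 peaks the overlap count equalled a brute-force count for 100% of gene calls. Named genes were those called in a laboratory or glucose list, the 10 best by mean rank over the 2 Wilmar-P molasses lists, and the largest cluster of each chromosome. Other genes named were chosen after their values were seen. The members and lists were chosen with earlier results of these data known.

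The alternatives tried were a distance of 0 or 1000 bp, a −log10 q of at least 5, lists cut to equal length, the summit in place of the peak, clusters in place of genes, leaving out centromere genes, leaving out each list, and pairing lists by replicate number.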

Additional observations from a re-analysis of the deposited data

How the results depend on the processing

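The 2 differences of group means were recomputed under 25 alternatives, and none changed direction. For Wilmar-P molasses against laboratory molasses the difference was 36.5 genes, and 33.5 to 39.5 genes when 1 of the 4 lists was left out. It was 2 genes when peaks within 1000 bp counted (exact permutation p = 1) and 1 gene among the top 228 peaks of each list. It was 42.5 genes among the top 961 peaks, an alternative added after the data had been seen. For Wilmar-P molasses against glucose it was 42.5 genes, and 40 to 45 when 1 list was left out, but 0 genes among the top 228 peaks (exact permutation p = 1), where the Wilmar-P molasses lists kept 1 tRNA gene each. The exact permutation p was 0.333 or larger for every alternative and says nothing about stability in this design.

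Genes called in both lists moved more. In Wilmar-P molasses, against 40 genes, there were 63 within 1000 bp, 1 among the top 228 peaks, 21 when clusters replaced genes, 14 without centromere genes and 21 with the summit inside the gene (added after the data had been seen). In laboratory molasses, against 4 genes, these counts were 54, 0, 2, 0 and 2. In Wilmar-P glucose, against 0 genes, there were 3 within 1000 bp. With an overlap of at least 1 bp, a −log10 q of at least 5, or a summit within 200 bp, the counts stayed within 1.5 times.

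The labels give the groups the same replicate numbers but do not say what a number marks. With the replicate number as a block the differences were 36.5 and 42.5 genes and the exact p was 0.5, the smallest possible. Over all 12606 annotated genes, call differences between replicates 1 and 2 in Wilmar-P molasses had a correlation of 0.0036 with those in laboratory molasses and of -0.0053 with those in glucose. Only 27 and 20 genes differed between replicates in both groups, so this does not settle whether the numbers pair the samples.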
